A study of Mus musculus with 16 samples.

Results

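The genes described here are 10 regulators and non-glycolytic targets of the hypoxia-inducible factors (HIFs), chosen by name from a pathway list: Hif1a, Epas1, Egln1, Egln3, Car9, Bnip3, Vegfa, Adm, Ankrd37 and P4ha1. The choice was made with earlier results of these data known. They are 10 of the 40840 genes in the count table, and all 10 were among the 20444 genes tested. RNA came from mouse p53-/-; Myc hepatoblasts, a line of liver progenitor cells named for the loss of the tumor suppressor p53 and for the oncogene Myc, and all 4 groups share this genotype. One pair of groups received the vehicle DMSO or the kinase inhibitor sorafenib for 48 h, and the other pair received DMSO or sorafenib for 7 days. Each group had 4 replicates, which gives 16 libraries. The comparisons ask how the drug changed expression after a short and a long exposure. Nothing in the labels says that replicates were separate cultures, so p-values measure the spread between these samples, which may be technical.

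HIFs are transcription factors made of an oxygen-regulated alpha subunit and a stable beta subunit. With oxygen present, prolyl hydroxylases of the Egln family mark the alpha subunit for destruction by the von Hippel-Lindau ubiquitin ligase, and without it the alpha subunit accumulates and switches on genes for angiogenesis, pH control, mitophagy and matrix synthesis. Several hydroxylase genes are themselves HIF targets, and in liver tumors the pathway is known for its part in vessel growth and drug response.

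Total counts per library ranged from 24002696 to 28617629 with DMSO for 48 h, from 16586254 to 27352812 with sorafenib for 48 h, from 23279342 to 29654546 with DMSO for 7 days and from 22302847 to 30828427 with sorafenib for 7 days. Levels are given as normalized counts, a gene's count scaled to a common library size, and as mean ± SD over the 4 libraries of a group. Trp53 had 1268 to 4799 counts per library and Myc had 4226 to 17797, where the lowest count of Myc is in a library described later, replicate 2 of sorafenib for 48 h, and the next is 7261. The counts leave the state of the Trp53 gene itself unknown, since a disrupted gene can still be transcribed.

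Markers of hepatoblasts were only in part present. Of 13 markers, 10 had at least 10 counts summed over all libraries, and Hnf4a, a defining factor of the hepatocyte lineage, was at 0 in all libraries, while Alb had at most 1 count in any library. Some of the 10 were near the floor. Afp had 0 to 14 counts per library, Prox1 had at most 5, and Epcam had 1 to 10 with sorafenib. Dlk1 was the most abundant marker of the list in DMSO, and in sorafenib for 7 days Gpc3 (4239 ± 98.2) was above Dlk1 (4020.2 ± 84.9). Summed over the list, normalized counts were 53470 to 54600 with DMSO and 21820 to 24830 with sorafenib at 48 h, and 27360 to 29660 with DMSO and 11060 to 11450 with sorafenib at 7 days. These sums are mostly Dlk1 and Gpc3, and the markers did not all go 1 way. Of all tested genes, 27.7% were lower and 26.9% higher with sorafenib at 48 h, and 27.9% and 28.9% at 7 days. Of the 10 hepatoblast markers tested, 6 were lower and 2 higher with sorafenib at 48 h, and 7 were lower and 2 higher at 7 days. The 2 higher ones at both times were Sox9, from 213 ± 26.6 to 664 ± 55.4 at 48 h and from 349.7 ± 18.4 to 904 ± 47.4 at 7 days, and Foxa2, from 211 ± 22.2 to 722 ± 78.4 and from 480.1 ± 30.7 to 862 ± 11. The GEO labels give the cell type as HCC, and the cells are called here by the name of the line. Endothelial markers summed to at most 33.7 normalized counts in any library, with Tie1 at 0 and Tek the most abundant. Of the 4 tested, 1 was lower and 0 higher with sorafenib at 48 h, and 2 were lower and 0 higher at 7 days. Tek was lower at 48 h (log2 fold change −1.5, adjusted p = 0.0036) and, with overlapping groups, at 7 days (adjusted p = 0.0346). Emcn, the other one lower at 7 days, had at most 4 counts in any library, and its groups overlapped. Blood cell markers summed to 61.9 to 157, with Adgre1, Cd3e and Hba-a1 at 0. Cd68 had 66 to 69.1 normalized counts on average in each group, whereas Csf1r had 12.2 ± 3.85 with DMSO and 8 ± 6.03 with sorafenib at 48 h and 69.7 ± 10.4 and 13.8 ± 1.76 at 7 days (log2 fold change at 7 days −2.34, adjusted p = 3.27e-08). Stellate cell and fibroblast markers, with Lrat at 0, summed to 48920 to 51900 with DMSO and 136700 to 157500 with sorafenib at 48 h, and to 70910 to 72990 and 115400 to 120600 at 7 days. Col1a1 and Acta2 made up most of these sums. Col1a1 was the most abundant in DMSO, and in sorafenib for 7 days Acta2 (63559 ± 1411) was above Col1a1 (52228 ± 783). Of the 6 tested, 4 were higher and 1 lower with sorafenib at 48 h, and at 7 days 3 were higher and 3 lower, with a median log2 fold change of −0.15. At 7 days Acta2 rose from 24186 ± 1389 and Col1a1 from 42221 ± 1001, while Dcn fell from 4889.7 ± 146 to 993 ± 38.8, Pdgfrb from 718 ± 50.3 to 469.8 ± 12.8 and Des from 42.2 ± 7.8 to 18.8 ± 6.76. Single markers were named after their values were seen. The part of these shifts in the results on HIF genes was not tested. In bulk RNA, fewer cells of a type and less RNA per cell cannot be told apart.

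Several libraries stood apart. In replicate 2 of sorafenib for 48 h, genes from a place on chromosome 14 onward in genome order, through chromosomes 15 to 19 and X, had 0.605 times the level they had before that place relative to the other replicates, a log2 step of −0.72, and the largest absolute step in any of the other libraries was 0.029. The genes after the step took 14.3% of the counts of this library and 20.8 to 21.6% of the counts of the others. Of the members, Epas1 and Vegfa lie after the step, so their values at 48 h are given with and without this library. The other members lie before the step, and their values at 48 h include this library. Without it, 2 of the 10 members were higher and 7 lower at 48 h, as with all libraries. The markers Gpc3, Acta2, Krt8, Krt18, Epcam, Csf1r and Pdgfrb also lie after the step, so the marker sums and values at 48 h include the lower counts of this library.

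**Figure D1:**
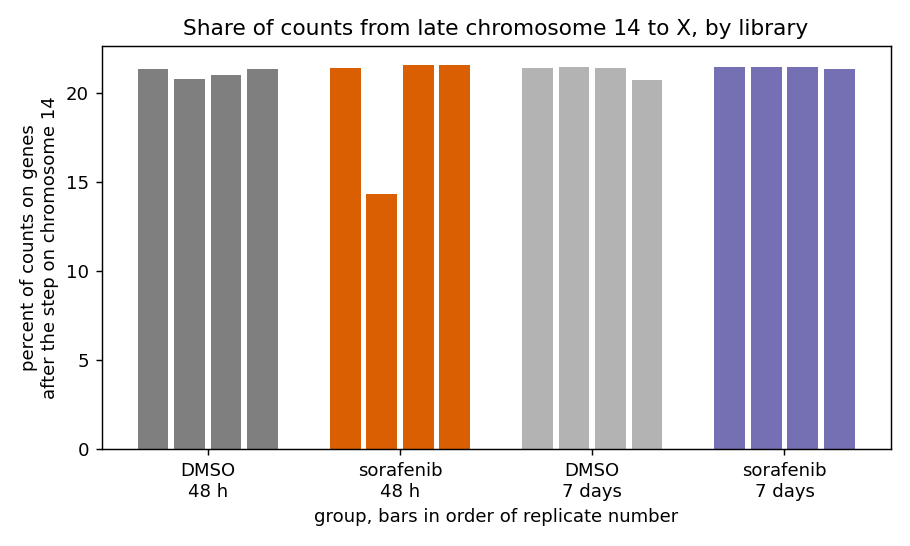
Percent of a library's counts on genes after the step on chromosome 14 (vertical axis), with 1 bar for each of the 16 libraries in the 4 groups, ordered by replicate number. Replicate 2 of sorafenib for 48 h stands at 14.3%, and the other libraries lie between 20.8% and 21.6%.

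In replicate 1 of DMSO for 7 days, 8 of the 10 HIF genes had the highest value of the 4 libraries of the group, as did 14 of 20 glycolytic HIF targets, against 27.9% of all tested genes. This count was made after the values were seen. Glycolytic targets were also most often highest in 1 library of each 48 h group, 14 of 20 in replicate 4 of DMSO and 14 of 20 in replicate 2 of sorafenib, where 26.5% and 40.2% of all tested genes were highest. That sorafenib library is the one with the step, and all glycolytic targets but Pgk1 and Pgam1 lie before the step. The 40.2% covers genes on both sides of the step, so it is not a like background. The part of the step in this count was not tested. Values without replicate 1 of DMSO for 7 days are given where a call turned on it and for Bnip3, and no other call of a member was lost without it except that of Vegfa over time in sorafenib, which most alternatives lost.

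Replicate 4 of DMSO for 7 days differed from the other libraries of its group by a chi-square per gene of 53.1 to 71.55, where these differed among themselves by 1.94 to 3.2. Its 10 most abundant genes took 6.26% of the counts, against 3.83 to 3.87% in the others. Without it, the same call of Vegfa over time in sorafenib was the only call of a member that was lost. In DMSO for 48 h, replicates 1 and 4 differed from replicates 2 and 3 by 18.65 to 42.7, against 5.09 and 5.95 within these pairs.

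At 48 h, 7 of the 10 HIF genes were lower and 2 were higher with sorafenib than with DMSO, where 27.7% of all tested genes were lower and 26.9% were higher. The median log2 fold change of the 10 genes was −1.54, and that of all tested genes was −0.05. At 7 days, 3 genes were lower and 3 were higher, near the 27.9% lower and 28.9% higher of all tested genes, and the median log2 fold change of the 10 genes was 0.02, as it was for all tested genes. The difference between these responses was itself tested as the interaction of treatment and time. The log2 fold change was higher at 7 days than at 48 h for 7 genes and lower for 1, as it was for 15.5% and 21.3% of all tested genes, with medians of the difference of 1.13 over the 10 genes and 0.02 over all. Because the 10 genes were chosen with earlier results known, these counts and medians, and those over time, describe them and not the pathway.

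Expression in the vehicle also changed with time. From 48 h to 7 days in DMSO, 8 of the 10 genes fell and 2 rose, where 25.5% of all tested genes fell and 23.9% rose, with a median log2 fold change of −1.48 against −0.01 over all. From 48 h to 7 days in sorafenib, 6 fell and 2 rose, where 22.3% of all tested genes fell and 17.5% rose, with medians of −0.26 and 0.01. The interaction, both drug comparisons and both time comparisons share libraries, so each is given by its own values. Whether culture density, passage or medium differed between 48 h and 7 days was not tested.

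**Figure D2:**
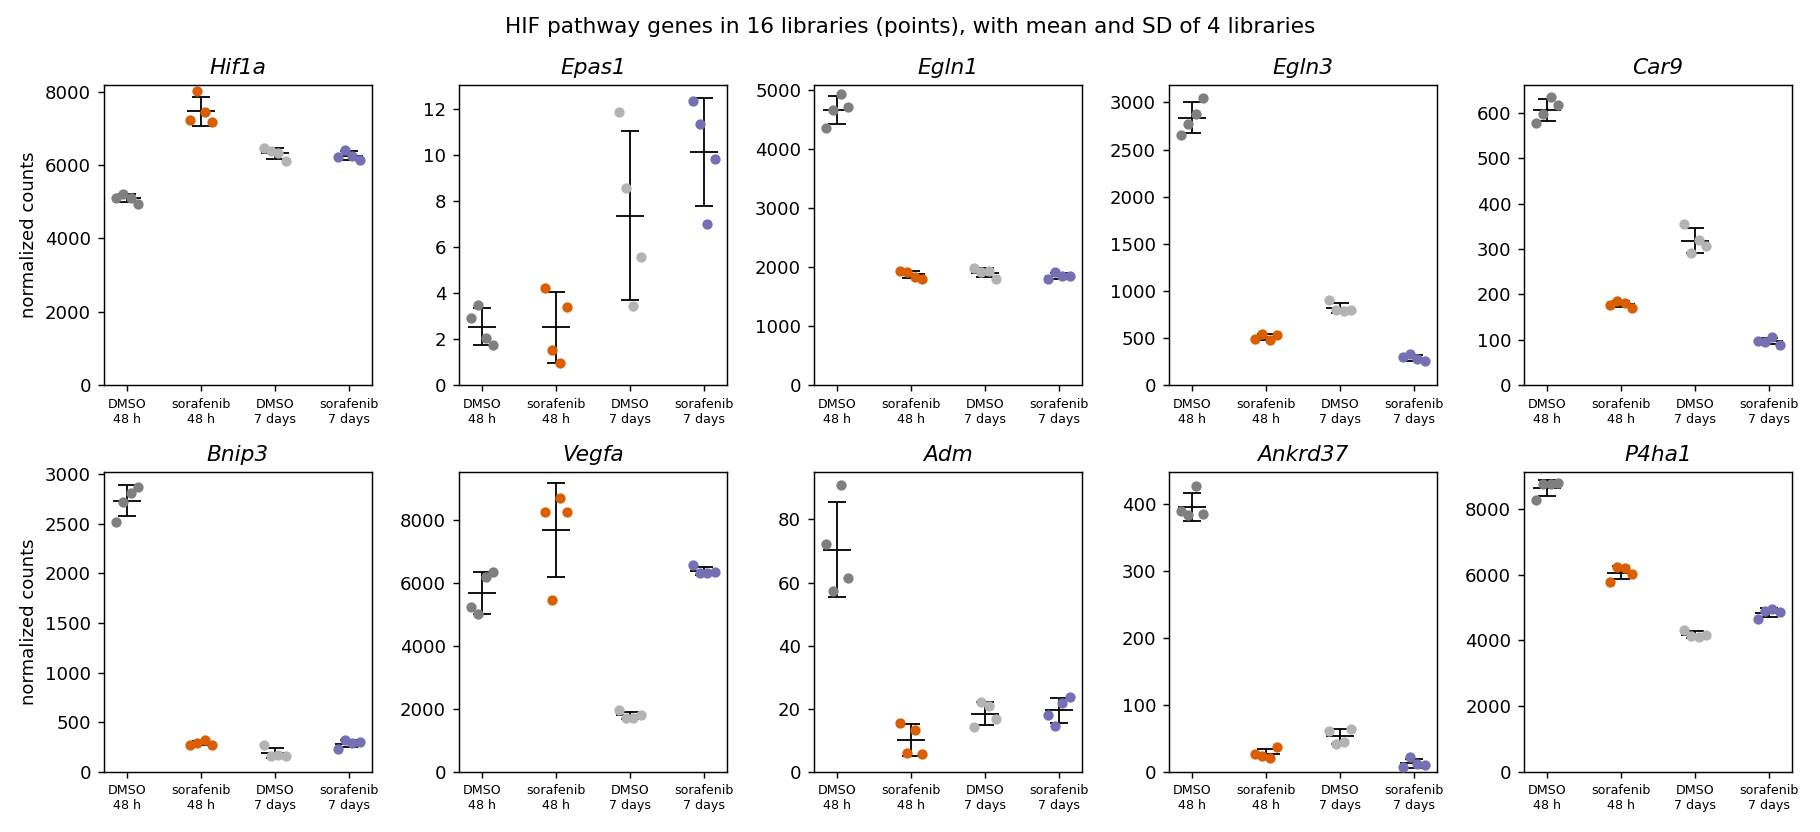
Normalized counts (vertical axes, from 0) of the 10 HIF pathway genes in DMSO and sorafenib at 48 h and 7 days. Points are the 16 libraries, the long horizontal bar is the group's mean and the error bars are its SD over 4 libraries. Bnip3 in DMSO lies between 2516 and 2872 at 48 h and between 159 and 271 at 7 days.

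Hif1a, which encodes the best known HIF alpha subunit, lies on the plus strand at chr12:73948149-73996321 of GRCm39. Its normalized counts at 48 h were 5094, 5205, 5109.7 and 4945 with DMSO and 7219, 8029.5, 7454 and 7175 with sorafenib. At 7 days they were 6474, 6369.8, 6328 and 6110.4 with DMSO and 6230.5, 6419, 6246 and 6139 with sorafenib. All 4 sorafenib libraries at 48 h were above all DMSO libraries, whereas the groups at 7 days overlapped. The log2 fold change was 0.55 at 48 h (SE 0.0348, adjusted p = 3.06e-11) and −0.01 at 7 days (95% interval −0.09 to 0.06, adjusted p = 0.755), and the interaction was −0.57 (adjusted p = 1.57e-08). Adjusted p-values throughout come from the quasi-likelihood test of edgeR, adjusted over all tested genes by the method of Benjamini and Hochberg. From 48 h to 7 days Hif1a rose in DMSO (log2 fold change 0.31, adjusted p = 2.43e-07) and fell in sorafenib (−0.25, adjusted p = 5.89e-06).

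Epas1, at chr17:87061087-87140838 on the plus strand, encodes the alpha subunit HIF-2 alpha and had 1 to 14 counts in every library. Its normalized counts were 2.54 ± 0.801 with DMSO and 2.52 ± 1.54 with sorafenib at 48 h, and 7.37 ± 3.67 and 10.1 ± 2.34 at 7 days. Its groups overlapped at both times, and neither drug comparison passed (log2 fold change −0.07, adjusted p = 0.94 at 48 h, and 0.47, adjusted p = 0.286 at 7 days). Without replicate 2 of sorafenib for 48 h, the log2 fold change at 48 h was 0.06 (adjusted p = 0.951). With so few counts, the 95% interval at 48 h ran from −1.34 to 1.21, and a difference of this size was not detectable at this depth. The rise from 48 h to 7 days in DMSO, where the groups overlapped (log2 fold change 1.46, adjusted p = 0.0137) was lost without replicate 1 of DMSO for 7 days (1.17, adjusted p = 0.0569). In sorafenib the rise was 2.00 (adjusted p = 0.00227), and 1.87 without replicate 2 of sorafenib for 48 h (adjusted p = 0.00513).

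Egln1, the main prolyl hydroxylase that marks HIF alpha in normal oxygen, lies on the minus strand at chr8:125635308-125676865. Its normalized counts at 48 h were 4357, 4673, 4934 and 4711 with DMSO and 1935, 1922, 1837 and 1807 with sorafenib. Those at 7 days were 1982, 1911, 1928 and 1794 with DMSO and 1796, 1913, 1854 and 1847 with sorafenib. The DMSO libraries at 48 h stood above every other library, and the other 12 libraries lay in 1 narrow band. Egln1 was 2.49-fold lower with sorafenib at 48 h (log2 fold change −1.32, SE 0.0417, adjusted p = 5.55e-16), and its log2 fold change at 7 days was −0.04 (95% interval −0.13 to 0.05, adjusted p = 0.462). From 48 h to 7 days in DMSO it fell by 1.29 on the log2 scale (adjusted p = 4.16e-15).

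Egln3, a hydroxylase gene strongly induced by HIF itself, lies on the minus strand at chr12:54225767-54250673. Its normalized counts were 2653, 2771, 2880.0 and 3046 with DMSO and 487, 543, 479.7 and 526 with sorafenib at 48 h. The counts at 7 days were 901, 795, 786 and 800.4 with DMSO and 292, 326, 281 and 255 with sorafenib. The 4 groups did not overlap and ordered as DMSO at 48 h, DMSO at 7 days, sorafenib at 48 h and sorafenib at 7 days, from high to low. Egln3 was 5.59-fold lower with sorafenib at 48 h (log2 fold change −2.48, SE 0.0652, adjusted p = 3.13e-17) and 2.83-fold lower at 7 days (log2 fold change −1.5, SE 0.0700, adjusted p = 2.44e-13). The interaction was 0.98 (adjusted p = 8.84e-08).

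Bnip3, a mitochondrial receptor for mitophagy at chr7:138490690-138511253 on the minus strand, had the largest fold change of the 10 genes with time in DMSO. Its promoter and those of Ankrd37, Egln3 and Adm are shown because these genes fell most at 48 h, beside those of Vegfa and Hif1a, which rose. The promoter table, RefSeq on GRCm38.p6, holds 250 bases before to 50 bases after a gene's start and matched 9 of the 10 genes, and each sequence was placed on GRCm39 by its only exact match there. Capitals mark the core of the HIF response element, ACGTG or GCGTG, on either strand, where CACGTG is a match on both strands and neighboring matches can overlap. Coordinates on GRCm39 are chr7:138511186-138511485 for Bnip3, chr8:46452838-46453137 for Ankrd37, chr12:54250611-54250910 for Egln3 and chr17:46343254-46343553 for Vegfa, all on the minus strand, and chr7:110226614-110226913 for Adm and chr12:73954391-73954690 for Hif1a, on the plus strand. All are written 5′ to 3′ along the gene.
Bnip3: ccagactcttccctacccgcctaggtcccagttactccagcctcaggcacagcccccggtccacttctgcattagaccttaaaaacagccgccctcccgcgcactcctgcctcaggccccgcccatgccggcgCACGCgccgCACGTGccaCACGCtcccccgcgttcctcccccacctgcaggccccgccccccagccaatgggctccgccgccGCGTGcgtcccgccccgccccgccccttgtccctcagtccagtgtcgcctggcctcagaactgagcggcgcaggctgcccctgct
Ankrd37: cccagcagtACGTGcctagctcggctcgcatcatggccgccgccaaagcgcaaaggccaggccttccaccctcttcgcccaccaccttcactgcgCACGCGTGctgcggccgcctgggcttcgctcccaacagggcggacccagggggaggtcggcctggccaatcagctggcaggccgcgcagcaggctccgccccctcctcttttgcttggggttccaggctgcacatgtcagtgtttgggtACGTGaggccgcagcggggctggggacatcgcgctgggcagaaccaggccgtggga
Egln3: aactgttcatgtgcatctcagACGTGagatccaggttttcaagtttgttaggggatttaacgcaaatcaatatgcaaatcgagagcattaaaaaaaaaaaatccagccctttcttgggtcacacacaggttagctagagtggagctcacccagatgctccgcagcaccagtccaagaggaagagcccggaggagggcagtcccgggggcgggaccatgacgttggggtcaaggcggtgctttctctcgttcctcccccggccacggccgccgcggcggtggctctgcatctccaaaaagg
Adm: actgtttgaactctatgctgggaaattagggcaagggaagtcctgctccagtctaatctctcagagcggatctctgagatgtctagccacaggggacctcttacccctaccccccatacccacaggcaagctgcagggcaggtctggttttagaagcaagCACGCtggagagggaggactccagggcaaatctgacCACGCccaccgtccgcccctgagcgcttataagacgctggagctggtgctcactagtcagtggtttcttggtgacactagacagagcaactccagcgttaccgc
Vegfa: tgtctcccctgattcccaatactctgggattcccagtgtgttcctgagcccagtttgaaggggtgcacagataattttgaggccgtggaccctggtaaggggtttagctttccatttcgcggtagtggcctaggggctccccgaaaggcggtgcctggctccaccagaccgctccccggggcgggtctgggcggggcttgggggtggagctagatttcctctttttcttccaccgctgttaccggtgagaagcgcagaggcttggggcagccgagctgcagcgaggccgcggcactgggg
Hif1a: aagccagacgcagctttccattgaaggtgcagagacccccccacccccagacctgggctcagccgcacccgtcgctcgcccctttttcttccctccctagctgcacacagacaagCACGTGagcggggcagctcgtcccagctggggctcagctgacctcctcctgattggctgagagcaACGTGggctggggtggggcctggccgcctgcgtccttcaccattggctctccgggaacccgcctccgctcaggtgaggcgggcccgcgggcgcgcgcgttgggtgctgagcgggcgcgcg

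The Bnip3 promoter held 5 matches, Ankrd37 4, Adm 2 and Egln3 1, and of the genes that rose, Hif1a held 3 and the Vegfa promoter shown 0, while a second RefSeq promoter of Vegfa held 2. Of the 9 genes in the table, 8 had a match in their first promoter (88.9%), as did 17 of 19 other non-glycolytic HIF targets (89.5%) and 43.8% of all 27025 genes with a promoter of this length. For ACGTG alone the shares were 77.8%, 42.1% and 19.7%, and for GCGTG alone 55.6%, 84.2% and 32.5%. Of the 32 other non-glycolytic HIF targets, 19 had a promoter of this length. The share over all genes took them whatever their expression or content of G and C, and the lists hold genes known as HIF targets. The shares are therefore no test of enrichment. A match describes letters in this window and not a bound site.

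Normalized counts of Bnip3 at 48 h were 2516, 2719.7, 2814 and 2872 with DMSO and 274, 292, 318 and 270.3 with sorafenib. At 7 days they were 271, 159, 171 and 160.5 with DMSO and 234, 321, 285 and 297 with sorafenib. The DMSO libraries at 48 h were far above the other 12, and replicate 1 of DMSO for 7 days lay within the range of the sorafenib libraries at 7 days. Bnip3 was 9.43-fold lower with sorafenib at 48 h (log2 fold change −3.24, SE 0.112, adjusted p = 2.33e-15). At 7 days it was higher (log2 fold change 0.60, SE 0.131, adjusted p = 0.000542), although the groups overlapped, and p was 0.0571 by an exact permutation test, two-sided, with 4 libraries in each group, whose smallest possible p is 0.0286. Without replicate 1 of DMSO for 7 days the log2 fold change was 0.81 (adjusted p = 7.44e-07), against a mean of 164 ± 6.39 in the other 3 DMSO libraries. In DMSO, Bnip3 was 14.5-fold lower at 7 days than at 48 h (log2 fold change −3.86, adjusted p = 1.78e-15), and in sorafenib its log2 fold change over the same time was −0.02 (95% interval −0.29 to 0.25, adjusted p = 0.934).

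Car9, the tumor-associated carbonic anhydrase that regulates pH at the cell surface, lies on the plus strand at chr4:43506966-43513729. Car9 had normalized counts of 578, 598, 634 and 618 with DMSO and 177, 186, 179.9 and 169 with sorafenib at 48 h. For 7 days the values were 355, 290.4, 319 and 306 with DMSO and 96.7, 95, 106 and 88.5 with sorafenib. Within each time the drug libraries were below all vehicle libraries. The log2 fold change was −1.77 at 48 h (SE 0.0682, adjusted p = 1.24e-14) and −1.71 at 7 days (SE 0.0758, adjusted p = 1.1e-13). The interaction was 0.06 (95% interval −0.16 to 0.28, adjusted p = 0.714), and Car9 was the only target among the 10 genes for which it was not called.

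Ankrd37, an ankyrin repeat protein gene known as a direct HIF-1 target, lies on the minus strand at chr8:46449939-46458744. Ankrd37 had normalized counts of 390.0, 383, 428 and 385 with DMSO and 26.7, 24.2, 20.9 and 37.5 with sorafenib at 48 h. After 7 days they were 61.6, 42.0, 44.9 and 64.0 with DMSO and 6.75, 21.9, 11.4 and 9.84 with sorafenib. The drug libraries were below the vehicle libraries at both times without overlap. Ankrd37 had the largest fold change of the 10 genes at 48 h, 14.5-fold lower (log2 fold change −3.86, SE 0.168, adjusted p = 8.8e-14), and was 4.00-fold lower at 7 days (log2 fold change −2.00, SE 0.248, adjusted p = 7.26e-07). Its fall from 48 h to 7 days in sorafenib (−1.06, adjusted p = 0.00807) was lost without replicate 4 of sorafenib for 48 h (−0.82, adjusted p = 0.0531).

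Adm, at chr7:110226858-110229027 on the plus strand, encodes the vasodilator peptide adrenomedullin and had low counts, 4 to 89 per library. Its normalized counts were 72.3, 57.3, 90.9 and 61.4 with DMSO and 15.4, 6.05, 13.3 and 5.68 with sorafenib at 48 h. At 7 days the groups had 18.4 ± 3.75 and 19.5 ± 4.02. The vehicle libraries at 48 h were above all others, and the groups at 7 days overlapped. Adm was 6.74-fold lower with sorafenib at 48 h (log2 fold change −2.75, SE 0.257, adjusted p = 1.27e-08), and its log2 fold change at 7 days was 0.06 (95% interval −0.50 to 0.61, adjusted p = 0.872). The interaction was 2.81 (adjusted p = 6.94e-06). Adm rose from 48 h to 7 days in sorafenib (0.91, adjusted p = 0.0302), a call lost without replicate 4 of sorafenib for 48 h (0.72, adjusted p = 0.0993) or without replicate 3 or 4 of sorafenib for 7 days (0.845, adjusted p = 0.0719, and 0.81, adjusted p = 0.0792).

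P4ha1, a catalytic subunit of the collagen prolyl 4-hydroxylase, lies on the plus strand at chr10:59159092-59209126. P4ha1 had normalized counts of 8272, 8750.0, 8769 and 8787 with DMSO and 5786, 6219.5, 6214 and 6031 with sorafenib at 48 h. The 7 day libraries had 4313, 4129.7, 4104 and 4159.8 with DMSO and 4647, 4905, 4963 and 4867 with sorafenib. All sorafenib libraries were below the vehicle at 48 h and above it at 7 days. The log2 fold change was −0.51 at 48 h (SE 0.0329, adjusted p = 4.18e-11) and 0.21 at 7 days (SE 0.0330, adjusted p = 1.23e-05), with an interaction of 0.73 (adjusted p = 1.8e-10).

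Vegfa, the main angiogenic growth factor of the pathway, lies on the minus strand at chr17:46327919-46343309. Its normalized counts were 5232, 5028, 6194 and 6356 with DMSO and 8278, 5471, 8722 and 8275 with sorafenib at 48 h. At 7 days they were 1960.3, 1714, 1699.6 and 1817 with DMSO and 6579, 6314, 6338 and 6361 with sorafenib. The low sorafenib library at 48 h was replicate 2, the one with the step, and the groups overlapped at 48 h only through it. With all libraries, the log2 fold change at 48 h was 0.43 (SE 0.104, adjusted p = 0.00143), and p was 0.0857 by the exact permutation test. Without that library the sorafenib mean was 8425 ± 257 over 3 libraries, and the log2 fold change was 0.56 (SE 0.0441, adjusted p = 5.07e-16).

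At 7 days Vegfa was 3.56-fold higher with sorafenib (log2 fold change 1.83, SE 0.109, adjusted p = 1.18e-11). The interaction was 1.40 (adjusted p = 2.8e-07), and 1.27 without the library with the step (adjusted p = 7.92e-23). In DMSO, Vegfa fell by 1.67 on the log2 scale from 48 h to 7 days (adjusted p = 1.16e-10), so that the larger drug difference at 7 days was set against a lower vehicle level. In sorafenib the log2 fold change from 48 h to 7 days was −0.27 (adjusted p = 0.0486), with overlapping groups. That call was lost under 20 of 25 alternatives, with adjusted p up to 0.218, whereas without the library with the step the log2 fold change was −0.40 (adjusted p = 8.11e-11).

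**Figure D3:**
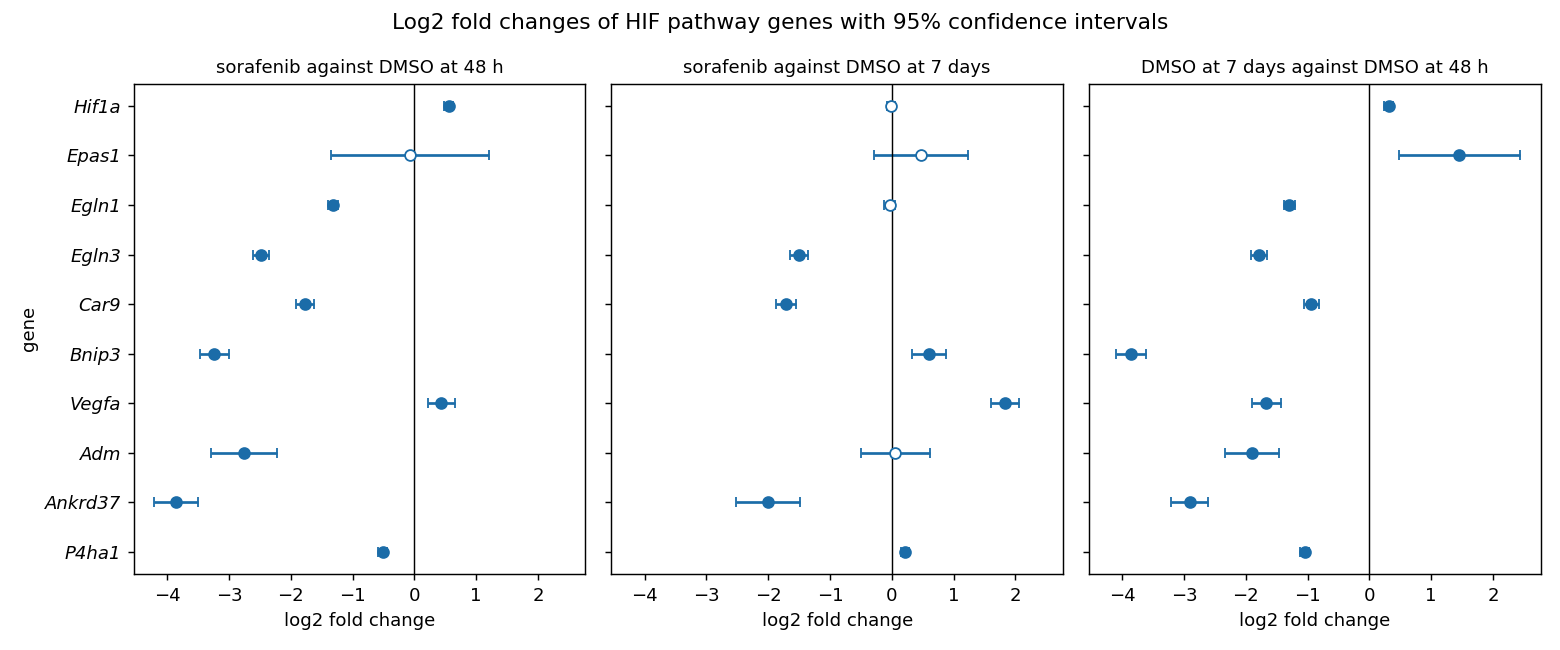
Log2 fold changes (horizontal axes) of the 10 HIF pathway genes for sorafenib against DMSO at 48 h and at 7 days and for DMSO at 7 days against DMSO at 48 h, with 95% confidence intervals. Filled points passed the test and open points did not. Egln1 lies at −1.32, −0.04 and −1.29 in the 3 panels.

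Compared per kilobase of exon, in DMSO at 48 h P4ha1 and Vegfa had the highest levels of the 10 genes, 1334 ± 38.4 and 1326 ± 156 normalized counts per kilobase, which did not differ beyond their spread. Egln3 followed with 1055 ± 62.2, then Bnip3 with 632 ± 36.2 and Hif1a with 609.8 ± 12.9, which also did not differ beyond their spread, then Egln1 with 521 ± 26.5. Car9 had 249 ± 10, Ankrd37 212 ± 11.2, Adm 43.2 ± 9.22 and Epas1 0.450 ± 0.142. In sorafenib at 7 days Vegfa was highest with 1488 ± 28.5, followed by Hif1a with 750.1 ± 14 and P4ha1 with 748 ± 21.3, which did not differ beyond their spread, whereas Bnip3 stood at 65.8 ± 8.49. These levels depend on the length taken for a gene: over the longest transcript in DMSO at 48 h, P4ha1 had 2125 and Vegfa 1612, Egln1 (801) was above Hif1a (743) and Bnip3 (727), and Ankrd37 (426) was above Car9 (281), and in sorafenib at 7 days P4ha1 (1191) was above Hif1a (913).

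The genes whose pattern over the 16 libraries was most like a member's were sought among 11483 genes, by the root mean square difference of centered log2 values. For Egln1 they were Tpi1 (0.106) and Gpi1 (0.123), both enzymes of glycolysis. Egln3 was most like Ly6e (0.173) and Gpr153 (0.175), Car9 most like Etfbkmt (0.15) and Tspan13 (0.153), and Bnip3 most like Selenbp1 (0.266) and Pfkl (0.438). For Vegfa they were Usp11 (0.144) and Enpp5 (0.157), on chromosomes X and 17 after the step, and without the library with the step Usp11 (0.144) and Map2k6 (0.154). P4ha1 was most like Ankrd24 (0.085) and Zranb3 (0.09), Ankrd37 most like Atp7b (0.416) and Rec8 (0.438), Adm most like Rbp4 (0.378) and Fam162a (0.428), and Epas1, at its low counts, most like Dok3 (0.412) and Nell2 (0.421). Without the library with the step, the nearest gene became Pkdcc for Car9 (0.128) and Trmt2b for P4ha1 (0.067), and the second nearest became Phlda1 for Epas1 (0.409) and Fos for Adm (0.42).

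Other regulators of the pathway had medians near 0. Of 14 at 48 h, 5 were higher and 7 lower with sorafenib (median log2 fold change −0.16), and at 7 days 4 were higher and 6 lower (−0.11, also with Hif3a at its bound). Of all tested genes, 26.9% were higher and 27.7% lower at 48 h, and 28.9% and 27.9% at 7 days. Without the library with the step, the interaction was called higher for 3683 and lower for 5078 of all 20353 tested genes. Among the 14 regulators it was then called for 3 higher and 4 lower, against 2 and 0 with all libraries. Without that library, 5795 of the 20353 genes were higher with sorafenib and 5813 lower at 48 h, and 6346 and 6244 at 7 days. The median of the regulators at 48 h was then −0.09 with the same counts, and 8 were lower at 7 days. Hif3a, which encodes a HIF alpha subunit that can restrain the others, had the largest fold changes among them, with normalized counts of 242, 194, 232 and 251 with DMSO and 5.61, 6.05, 6.66 and 13.6 with sorafenib at 48 h. At 7 days they were 29.2, 13.7, 25.9 and 13.9 with DMSO and 0 in all 4 sorafenib libraries. Hif3a was 27.8-fold lower with sorafenib at 48 h (log2 fold change −4.79, adjusted p = 1.23e-11) and at least 7.26-fold lower at 7 days, against a floor of 3 counts per library. Cited2, which competes with HIF for its coactivators, rose by log2 fold changes of 0.87 and 1.23 at 48 h and 7 days, Arnt2, a beta subunit, by 0.94 and 1.05, and Siah2, a ubiquitin ligase that acts on the hydroxylases, by 0.84 and 0.99.

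Other non-glycolytic HIF targets were mixed. Of the 31 tested, 11 were higher and 16 lower with sorafenib at 48 h (median log2 fold change −0.60), and 16 were higher and 10 lower at 7 days (0.21). Without the library with the step, 10 were higher and 16 lower at 48 h (−0.59), and 17 higher and 10 lower at 7 days (0.21). The shares over all tested genes, with all libraries, were 26.9% higher and 27.7% lower at 48 h, and 28.9% and 27.9% at 7 days. Flt1, a VEGF receptor, rose from 118 ± 15.7 to 1383 ± 109 normalized counts at 48 h and from 186 ± 11.7 to 1859 ± 66.5 at 7 days (log2 fold changes 3.56 and 3.32). Ero1a, an oxidase of the endoplasmic reticulum, rose with sorafenib from 4019 ± 242 to 8729 ± 322 at 48 h and from 1834 ± 56.3 to 9769 ± 129 at 7 days. Edn1, the vasoconstrictor endothelin, rose at 48 h (2.71, adjusted p = 1.98e-15), and its call at 7 days (0.18, adjusted p = 0.0447, groups overlapping) was lost in 9 of the 16 fits that left out a library and in the fit with a replicate block, with adjusted p up to 0.162.

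Glycolytic HIF targets went with most of the 10 genes at 48 h, 17 of 20 lower and 3 higher (median log2 fold change −1.03), and were split at 7 days, 8 lower and 8 higher (−0.02). In DMSO, 19 of the 20 were lower at 7 days than at 48 h (−1). Over all tested genes, 27.7% were lower and 26.9% higher with the drug at 48 h, and 27.9% and 28.9% at 7 days. Over time in DMSO, 25.5% of all tested genes were lower and 23.9% higher. The glucose transporter gene Slc2a1 had 6107 ± 247 normalized counts with DMSO and 2566 ± 149 with sorafenib at 48 h, and 2261 ± 88.4 and 3079.9 ± 42.4 at 7 days. Pdk1, a kinase that holds back pyruvate oxidation, had 6111 ± 243 and 1712 ± 59.7, then 690.3 ± 124 and 1245 ± 21.5, and Ldha had log2 fold changes of −1.10 at 48 h and 0.08 at 7 days, where its groups overlapped (adjusted p = 0.0279). For Slc2a1 and Pdk1, as for P4ha1 and Bnip3, the level in DMSO fell with time, and the drug libraries were lower than DMSO at 48 h and called higher at 7 days.

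**Figure D4:**
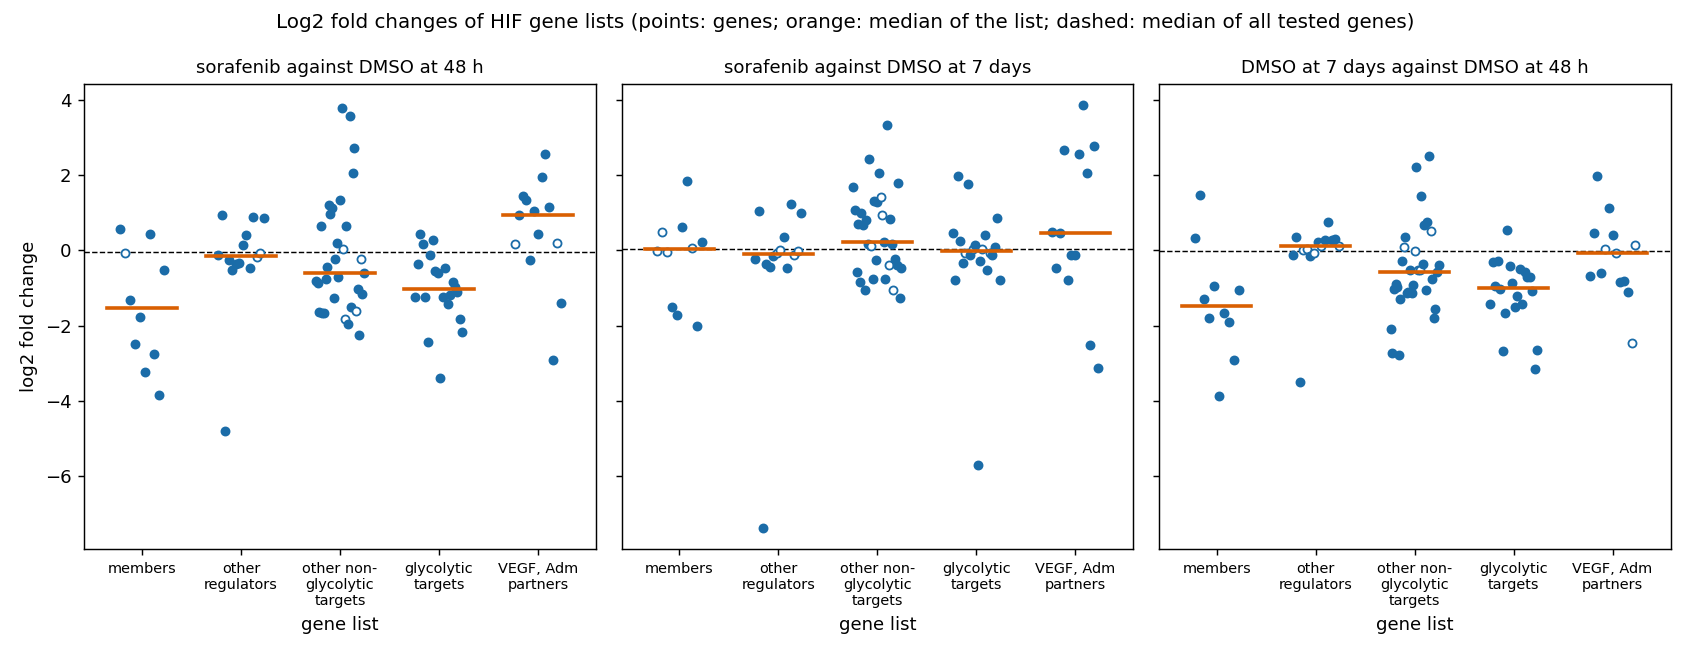
Log2 fold changes (vertical axis) of the genes of 5 HIF gene lists in 3 comparisons. Filled points passed the test, open points did not, orange bars are list medians and the dashed line is the median of all tested genes. The lowest point at 7 days is Hif3a, whose sorafenib libraries are at 0, so that its position is no measured size. The median of the 10 members is −1.54, 0.02 and −1.48 in the 3 panels.

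Among 13 receptors and partners of VEGF and adrenomedullin, 8 were higher and 3 lower with sorafenib at 48 h (median log2 fold change 0.95), and 7 were higher and 6 lower at 7 days (0.45). Without the library with the step, 9 were higher and 3 lower at 48 h (0.88). Over all tested genes, with all libraries, 26.9% were higher and 27.7% lower at 48 h, and 28.9% and 27.9% at 7 days. Calcrl, which binds adrenomedullin together with Ramp2 or Ramp3, rose from 36.1 ± 6.24 to 214 ± 26.8 normalized counts at 48 h and from 20.1 ± 4.31 to 297 ± 24.2 at 7 days. Kdr, the main VEGF receptor of endothelium, rose from 48.5 ± 12 to 122 ± 14 and from 31.3 ± 3.32 to 197 ± 17. Adm2, a peptide related to adrenomedullin, rose by log2 fold changes of 1.95 and 2.55, and Ackr3, a scavenger receptor that also binds adrenomedullin, fell by 1.40 and 3.13 on the log2 scale. Adm2 lies after the step, and without the library with the step its log2 fold change at 48 h was 2.07. Ramp2, named after its values were seen, went the other way from Calcrl, from 55.6 ± 7.63 to 7.24 ± 4.06 at 48 h (log2 fold change −2.92, adjusted p = 2.98e-09) and from 26.1 ± 3.3 to 4.31 ± 1.47 at 7 days (−2.52, adjusted p = 2.83e-07), and Ramp3 had a mean of at most 2.22 normalized counts in any group.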

How the data were processed

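The authors deposited raw counts of 16 libraries made with a stranded mRNA kit. The submitters' processing notes name STAR 2.7.1a, featureCounts 2.0.6 of Subread, DESeq2 1.40.2 and the build GRCm39. The strand setting and annotation of the counting are not given in the sources used here, so counts of overlapping or antisense genes are uncertain. Genes with fewer than 10 counts in total (20396) were left out. The test was that of edgeR 4.0.16 in R 4.3.3 (TMM, quasi-likelihood, 1 model over 4 groups, no block), and genes were called at a Benjamini-Hochberg adjusted p under 0.05. A normalized count is a count divided by total times TMM factor, scaled by the geometric mean of these products. The exact permutation test used log2 values with a pseudocount of 0.5. Intervals are 95% and come from the fit, and the floor of 3 counts covers counting error only. Gene positions and exon lengths came from GENCODE M39.

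Alternatives were DESeq2 1.42.0, limma 3.58.1 voom with sample weights, DESeq2 size factors, total counts, separate TMM offsets around the step on chromosome 14, other filters, a fold change threshold, only the groups compared, a replicate block, leaving out each library, and the longest transcript for lengths. Lists and likeness without the library with the step, counts of the highest library, and levels without replicate 1 of DMSO for 7 days were chosen after seeing the data. The members and lists were chosen with earlier results of these data known. Named genes were all 10 members, from each of 3 other lists up to 4 called genes with the largest change in either drug comparison and a mean of at least 50 normalized counts, Slc2a1, Ldha, Pdk1, Trp53 and Myc, and the 2 genes most like each member whose group means spanned at least 1 on the log2 scale, though not every gene the rule takes is described. Between replicates the chi-square per gene was at least 1.58, against 1 for counting error, so no library was taken for a copy. The edgeR fit was tested on simulated counts, in which few genes changed and no library had a step on chromosome 14. The other methods were not tested on simulated data.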

Additional observations from a re-analysis of the deposited data

Results flagged for a closer look

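Chance gives an outlying library in about 1 in 20 single gene and group pairs. The 83 pairs examined share libraries, so they are not independent draws. In 11 of the 83 pairs, 1 library lay far from the other 3 for its group. Among the 10 HIF genes these were, in normalized counts, Egln3 at 900.7 and Bnip3 at 271.4 in replicate 1 of DMSO for 7 days (others 785.5 to 800.4 and 159.3 to 170.9), Vegfa at 5471 in replicate 2 of sorafenib for 48 h (others 8275 to 8722), Ankrd37 at 427.8 in replicate 3 of DMSO for 48 h and P4ha1 at 8272 in replicate 1 of DMSO for 48 h. Among other genes, Arnt2 stood at 302.2, Flt1 at 140.9 and Kdr at 66.36 in replicate 3 of DMSO for 48 h, Hif3a at 13.63 and Siah2 at 774.6 in replicate 4 of sorafenib for 48 h, and Ackr3 at 44.67 in replicate 2 of sorafenib for 7 days.

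The share of counts after the step on chromosome 14 was 14.3% in replicate 2 of sorafenib for 48 h (other libraries of the group 21.4 to 21.6%) and 20.8% in replicate 4 of DMSO for 7 days (others 21.4 to 21.5%). In that DMSO library the 10 genes with the most counts took 6.26% of the counts, against 3.83 to 3.87% in the other libraries of its group and 4.63 to 6.75% in DMSO for 48 h. Each library was also left out in turn.

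The response to sorafenib differed between 7 days and 48 h by the test of the interaction for 14 of the 21 genes examined, where it was called higher for 15.5% and lower for 21.3% of all tested genes. Of the 21, 11 had been chosen for their large changes with the drug. On the log2 scale the difference was −0.57 for Hif1a, 1.28 for Egln1, 0.98 for Egln3, 3.84 for Bnip3, 1.4 for Vegfa, 2.81 for Adm, 1.85 for Ankrd37 and 0.73 for P4ha1. It was 0.35 for Cited2, −2.54 for Edn1, 1.29 for Ero1a, 1.32 for Calcrl, −1.74 for Ackr3 and 1.33 for Kdr.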

How the results depend on the processing

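Of the members' log2 fold changes under the alternatives run, 1215 kept their call or lack of one, 40 kept their direction and lost the call, and none of the called ones reversed; values near 0 that were not called could change sign, as Adm at 7 days did (0.06, and −0.04 without replicate 1 of DMSO for 7 days). A threshold of 1 on the absolute log2 fold change left 3690 genes called at 48 h, 4202 at 7 days, 1965 for the interaction, 2242 for DMSO over time and 1727 for sorafenib over time. Among the 10 genes it left 6 lower and 0 higher at 48 h, and 3 lower and 1 higher at 7 days. For the interaction it left 5 higher and 0 lower. Over time it left 7 lower and 1 higher in DMSO, and 1 lower and 1 higher in sorafenib. With at least 10 counts in every sample, which removes Epas1, Adm and Ankrd37, members higher over time numbered 1 in DMSO and 0 in sorafenib. Leaving out single libraries gave 1 to 2 members higher over time in DMSO, 1 without replicate 1 of DMSO for 7 days, and 1 to 2 in sorafenib, 1 without replicate 4 of sorafenib for 48 h or replicate 3 or 4 of sorafenib for 7 days. The fall of Vegfa over time in sorafenib (adjusted p 0.0486) was lost under 20 of 25 alternatives, among them DESeq2 (0.102) and 14 of the 16 fits that left out a library, and was called without the library with the step. No scaling moved the median of all genes by over 0.1. With total counts in place of TMM, 55.6% of interaction calls were higher, against 42.1%. The replicate block gave 10644 genes called at 48 h, 11027 at 7 days and 6987 for the interaction, with 2 members higher and 7 lower at 48 h; same-number libraries had correlations of −0.0501 to 0.0157 at 48 h and −0.00321 to 0.131 at 7 days, and 1 of 4 was most like its own number at each time, so the numbers were not taken to pair the libraries. The block was not run for the comparisons over time, and the fit of only the groups compared was not run for the interaction, which uses all libraries. At the depth of these libraries, Epas1 and the low groups of Adm and Ankrd37 rest on few counts.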
